A study of Rattus norvegicus with 12 samples.

Results

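Cells of the rat cervix from which macrophages (Mφs) had been removed were compared between late pregnancy and the nonpregnant state. The comparison used the 6 arrays that the labels give as Mφ-depleted, out of 12 arrays in all. Of these, 3 came from adult Sprague Dawley rats at day 21 postbreeding (D21 rats 1, 2 and 4), late in pregnancy, and 3 from nonpregnant (NP) rats in proestrus (NP rats 5, 6 and 7). The other 6 arrays, from other rats, held cervix cells of D21 and NP rats that had not gone through the depletion and are called whole cervix. All animals were killed with CO2 and perfused with saline, and each cervix was minced, dispersed with collagenase B and passed through a 70 µm filter. For depletion the suspended cells were incubated with the ED1 antibody, which binds the lysosomal protein CD68, and then with magnetic beads, and the cells that the magnet did not hold were frozen for RNA. The bead-bound Mφs were not measured. Each array held the RNA of 1 rat, so that p-values refer to the spread between animals within groups, pooled over all 12 arrays. Differences between slides and scan days are part of that spread.

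The cervix is a firm, collagen-rich organ that softens before birth. Its stroma holds fibroblasts, which make fibrillar collagens, elastic fibres and the proteoglycans that space them, together with bundles of smooth muscle. Its lumen is lined by epithelium that ranges from layered squamous cells, which cornify around the time of ovulation in the rodent cycle, to columnar cells that secrete mucus and thicken in pregnancy. Mφs enter the stroma near term and release proteases and cytokines, and taking them out leaves the question of what the resident cells express.

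Values, called levels here, are log2 intensities with the array's 75th percentile subtracted, so that a level of 0 is that percentile. Levels of a gene are listed in the order NP rats 5, 6 and 7 and D21 rats 1, 2 and 4. A gene was tested if either group had it rated by the scanner software as well above background on each of its 3 arrays. Passing through a single group favours a change towards that group, in single genes and in the counts and medians of lists. It was called higher or lower in D21 if its Benjamini-Hochberg adjusted p from limma was under 0.05 and it changed at least 2-fold. Changes are log2 differences, D21 minus NP, with their standard error (SE).

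The arrays differed in brightness and did not group by pregnancy alone. Between 44.9% of the probes (NP rat 7) and 61.8% (NP rat 5) of a depleted array were well above background, and the 75th percentile lay between 290 intensity units in NP rat 7 and 1171 in D21 rat 1. Over 10934 genes, D21 rats 1 and 2 correlated with r = 0.969 across genes, which are not replicates, while D21 rat 4 correlated with them with r = 0.924 and 0.906. The array closest to D21 rat 4 was NP rat 7 (r = 0.960), which lay on the same slide and was scanned on the same day. Among NP rats, r was 0.946 for rats 5 and 6, 0.943 for rats 5 and 7 and 0.915 for rats 6 and 7, and NP rat 6 correlated with D21 rat 2, on its slide, with r = 0.927. NP rats 5 and 6 shared a slide with D21 rat 2, and D21 rat 1 was the only array on its slide and on its scan day. Counts of calls that moved by over 1.5 times without an array are given below with that array left out, and group differences within a shared slide can be read from the levels of NP rats 5 and 6 against D21 rat 2, and of NP rat 7 against D21 rat 4.

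Genes that mark Mφs were dim in the depleted cells of both groups. Of 20 Mφ markers on the array, 8 could be tested in depleted cells against 20 of 20 in whole cervix. Adgre1, which encodes F4/80, and the mannose receptor Mrc1 were not well above background on any of the 6 depleted arrays, Csf1r, the receptor of the Mφ growth factor, was so on 1 D21 and 1 NP array, and the scavenger receptor Cd163 on 2 D21 arrays. The 8 testable markers had a summed linear level, relative to the 75th percentile, of 5.18 to 16.0 in NP and 11.7 to 17.0 in D21 depleted cells, against 70.6 to 137 in whole cervix. Cd68, the transcript of the antigen used for the depletion, was well above background on all 6 depleted arrays, with levels of -1.68, 0.14 and 0.38 in NP and 1.04, -0.33 and 1.96 in D21 rats. The groups overlapped, and the change of 1.27 was not called (adjusted p = 0.257). All 8 changes were positive, with a median of 0.53, and 0 of 8 were called by limma (2 at an unadjusted p below 0.05) or by the methods' t-test at its threshold. All 8 were well above background on all 3 D21 arrays and 6 on all 3 NP arrays, so the filter favoured positive changes. Over all 20 markers on the array, the median change was 0.19. Without D21 rat 4, 13 of the markers could be tested and 5 were called higher, or 3 of the 8 tested with all arrays. Whether remaining Mφs took part in any result below was not tested.

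Many more genes were higher than lower in the depleted cells of D21 rats. Of 13407 genes tested, 471 were higher in D21 (3.51%) and 123 lower (0.917%), and the median change over all genes tested was 0.02. For each of these 594 genes, no D21 array overlapped with an NP array. Over all genes tested, the groups did not overlap for 9.5% in the higher and 7.53% in the lower direction. At the threshold of the methods, 2-fold with an unadjusted p below 0.01, limma gave 731 genes higher (5.45%) and 277 lower (2.07%). Of the called genes, 272 higher and 100 lower ones were well above background on all 6 arrays, while 39 of the higher genes were not so on any NP array and 5 of the lower genes not on any D21 array. In bulk samples such as these, fewer cells of a type and less RNA per cell cannot be told apart.

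The counts moved with single animals. Without D21 rat 4, 1323 genes were higher and 1122 lower, and 463 and 116 of the genes called with all arrays were among them. With each of the other arrays left out, the number higher was 253 without NP rat 5, 328 without NP rat 6, 548 without NP rat 7, 275 without D21 rat 1 and 244 without D21 rat 2. The number lower was 35, 66, 270, 32 and 46 in the same order. On the slide shared by NP rats 5 and 6 and D21 rat 2, 471 of the 471 genes called higher were higher and 123 of the 123 called lower were lower, with median differences of 2.56 and -1.72. On the slide shared by NP rat 7 and D21 rat 4, the same numbers held, with medians of 1.56 and -1.12. These arrays also entered the calls, so the within-slide values describe the size of the difference and do not test it. A fit with slide as a block called 294 genes higher and 48 lower, and one with the scan day as a block called 354 and 56. Because D21 rat 1 was alone on its slide and scan day, its block took up its values, and it added nothing to the change. This holds for every fit below with such a block, so a call lost there can also reflect the loss of this animal.

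**Figure D1:**
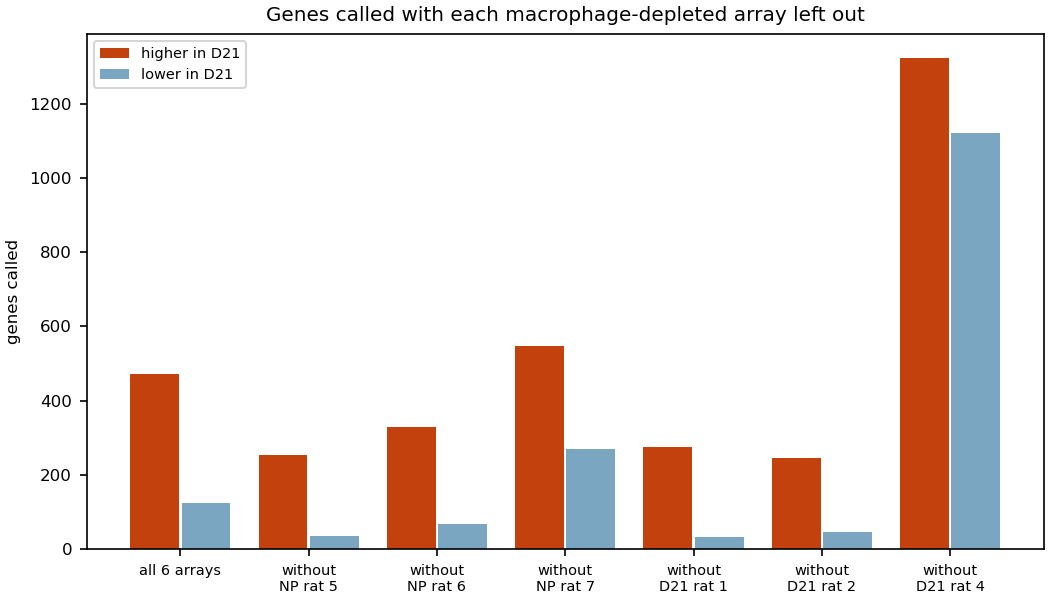
Number of genes called higher (orange) or lower (blue) in D21 than NP depleted cells with all 6 arrays and with each depleted array left out. The bars start at 0, and leaving out D21 rat 4 gave 1323 higher and 1122 lower genes, against 471 and 123 with all arrays.

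Fibroblast markers stood out on every array. Of 12 markers, 11 could be tested, and 9 rose in D21 while 0 fell, with a median change of 2.93. The 9 did so with each of the 6 arrays left out in turn and with slide as a block. The summed level of the 11 markers was 40.0, 18.5 and 62.5 in NP rats 5, 6 and 7 and 334, 496 and 334 in D21 rats 1, 2 and 4. No D21 rat came near an NP rat on this scale. In whole cervix, the sum lay between 457 and 711 over the 6 rats. Lum, a keratan sulfate proteoglycan, and Thy1, a surface protein of fibroblasts, were not called (changes of 1.38 and 1.40, adjusted p = 0.114 and 0.566).

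Pdgfra, the platelet-derived growth factor receptor that marks stromal fibroblasts (probe at chr14:35369708-35369767, rn4 build), had levels of -2.06, -2.27 and -2.33 in NP and 1.05, 1.78 and 1.17 in D21 rats. Both groups were tight and far apart, a change of 3.55 (SE 0.28, adjusted p = 0.000181). Dpt encodes dermatopontin, a small matrix protein that binds decorin and collagen (probe at chr13:80590301-80590360, rn4). Its levels were -3.44, -4.06 and -4.06 in NP and -0.45, -0.43 and 0.18 in D21 rats, with 2 NP arrays well above background and a change of 3.62 (SE 0.25, adjusted p = 0.000181). The groups did not overlap.

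The fibrillar collagens rose with them. Col1a1 and Col1a2 encode the chains of type I collagen, the main fibre of the cervix. Col1a1 (probe at chr10:83637956-83638015, rn4) stood at 3.76, 2.53 and 4.66 in NP and at 7.06, 7.79 and 7.37 in D21 rats, a 13.5-fold difference (log2 3.76, SE 0.44, adjusted p = 0.00089). Col1a2 (probe at chr4:29428206-29428265, rn4) stood at 1.98, 1.42 and 3.65 in NP and at 6.79, 7.04 and 5.90 in D21 rats, an 18.8-fold difference (log2 4.23, SE 0.57, adjusted p = 0.00208). NP rat 7 was the highest of the NP rats for both chains, and D21 rat 4 the lowest of the D21 rats for Col1a2. Col3a1, type III collagen, which forms thinner mixed fibres with type I, had levels of 4.02, 2.46 and 4.25 in NP and 5.87, 6.57 and 6.20 in D21 rats (change 2.63, SE 0.41, adjusted p = 0.00418). It was not called when the 6 depleted arrays were fitted alone.

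Promoters are shown for Col1a2 and Dpt because they are stromal genes of the RefSeq promoter table whose calls held with each array left out, and for Gp2, an epithelial gene with a large change described below. Col1a1, Col3a1 and Mmp2 are named without a promoter. Each window holds 300 bases around the annotated start, most of them upstream, on the GRCr8 assembly of RefSeq, and are written 5′ to 3′ on the gene's strand. Capitals mark 2 motifs searched on both strands, CCAAT, the letters of the CCAAT box (ATTGG where the match is on the opposite strand), and TATAAA, the letters of a TATA box. The motifs do not overlap. The windows are chr4:33518307-33518606 on the plus strand for Col1a2, chr13:79656091-79656390 on the plus strand for Dpt and chr1:183243905-183244204 on the minus strand for Gp2.
Col1a2: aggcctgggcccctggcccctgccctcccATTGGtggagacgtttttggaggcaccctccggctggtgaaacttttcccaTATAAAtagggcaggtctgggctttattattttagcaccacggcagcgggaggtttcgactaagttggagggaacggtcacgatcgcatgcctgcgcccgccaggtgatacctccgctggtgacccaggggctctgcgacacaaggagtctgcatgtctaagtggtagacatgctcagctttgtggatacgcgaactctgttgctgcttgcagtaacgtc
Dpt: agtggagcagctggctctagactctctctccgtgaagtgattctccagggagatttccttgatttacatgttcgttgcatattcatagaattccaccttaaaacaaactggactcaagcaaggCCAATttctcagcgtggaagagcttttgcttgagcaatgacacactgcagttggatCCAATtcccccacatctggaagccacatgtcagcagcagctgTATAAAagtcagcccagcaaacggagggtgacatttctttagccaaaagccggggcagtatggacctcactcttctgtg
Gp2: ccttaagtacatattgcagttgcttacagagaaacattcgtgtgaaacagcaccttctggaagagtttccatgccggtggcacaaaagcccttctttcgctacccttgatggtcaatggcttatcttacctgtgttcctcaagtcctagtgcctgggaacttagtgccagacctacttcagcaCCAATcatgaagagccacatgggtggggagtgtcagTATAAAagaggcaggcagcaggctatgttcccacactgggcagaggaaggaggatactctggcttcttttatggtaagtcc

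Counted from the annotated start, the TATAAA letters began at position -29 in Dpt and -31 in Gp2, and CCAAT letters at -127 and -71 in Dpt and at -67 in Gp2. In Col1a2 both motifs lay further upstream, at -170 for TATAAA and -221 for the other. Of both motifs, CCAAT was held by 37.7% of the 27457 promoters of the table and by 38.3% of the 8013 that belong to genes tested here. Among genes with a promoter in the table, it was held by 33.7% of 273 genes called higher and 38.6% of 70 called lower. TATAAA was held by 14.3% of all promoters, 7.04% of those of tested genes, 10.3% of those of genes called higher and 8.57% of those of genes called lower. The palindromic estrogen response element, also searched on both strands, was held by 0.0255% of all promoters and by 0 of the 273 and 0 of the 70. A match of letters describes the window and is no measure of binding.

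**Figure D2:**
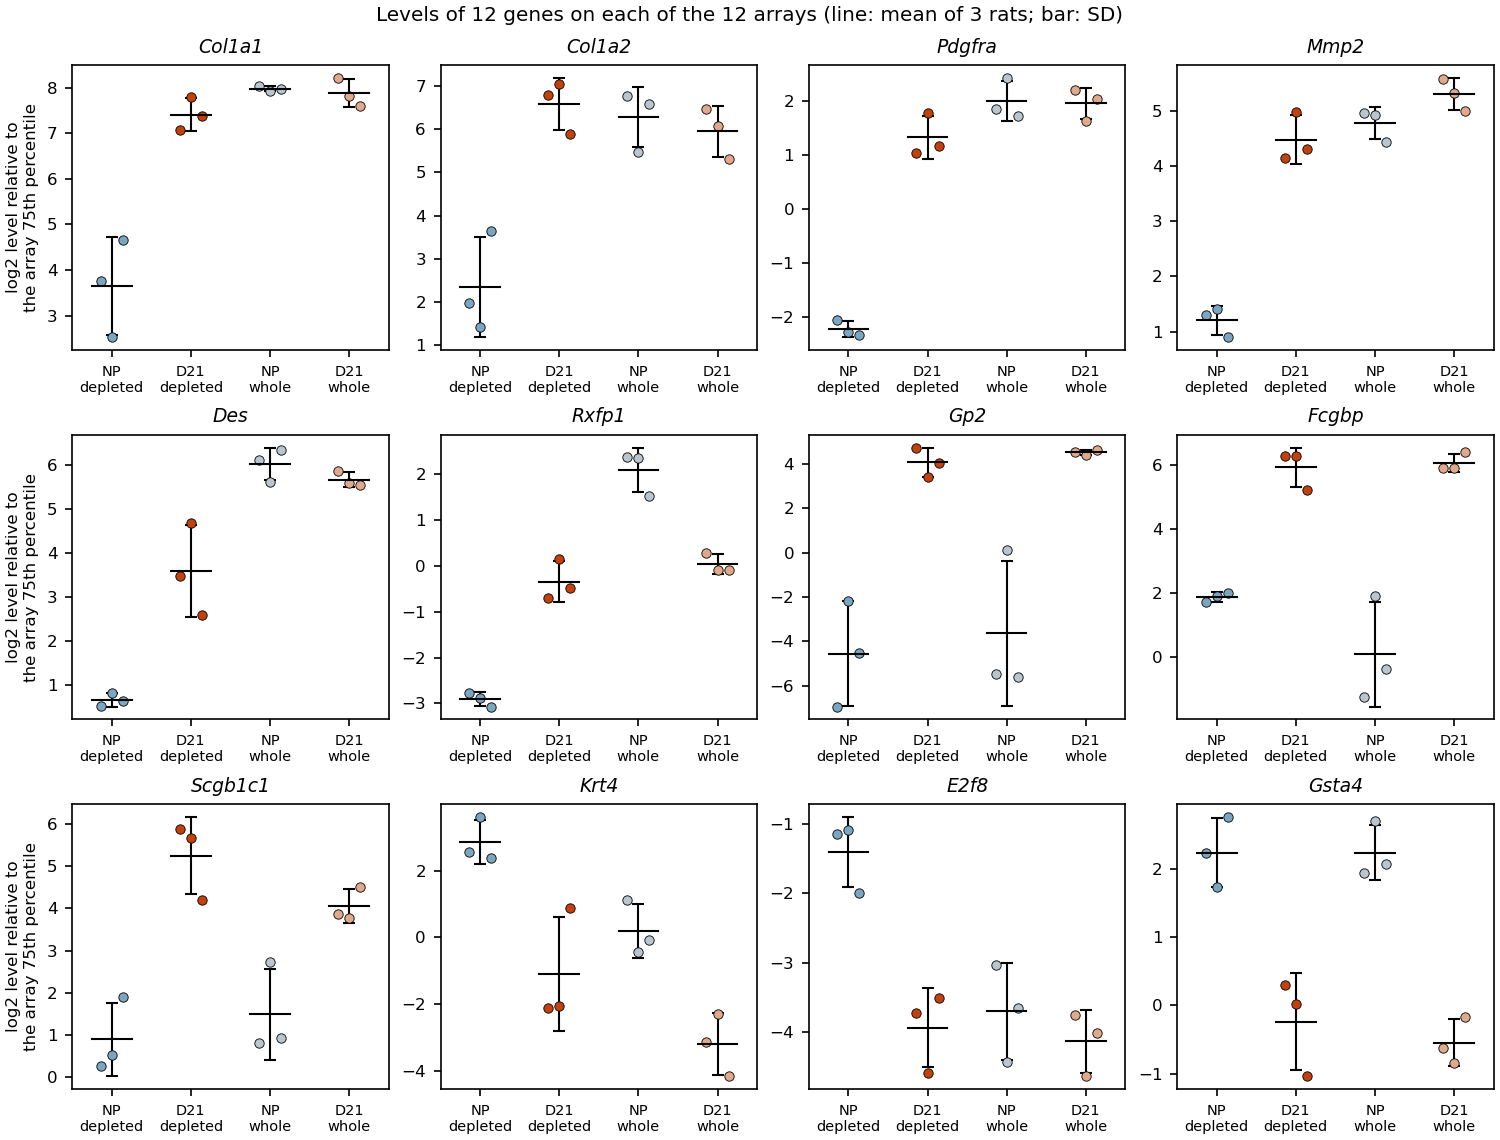
Levels of 12 genes on each of the 12 arrays (log2 intensity relative to the array's 75th percentile), with 1 point for each rat of the NP and D21 depleted and whole groups, a line at the group mean and an error bar of 1 SD. For Col1a1 in depleted cells, NP rats lie between 2.53 and 4.66 and D21 rats between 7.06 and 7.79.

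Other collagens and the enzymes that crosslink them moved in the same direction. Of 22 tested genes of collagen and elastic fibres, 15 rose and 0 fell, and the median change was 2.30. For 17 of the 22, no D21 array overlapped with an NP array. Col6a2, a chain of the beaded filament collagen VI, had levels of 3.05, 1.78 and 3.75 in NP and 6.04, 6.67 and 6.24 in D21 rats (change 3.46, SE 0.43, adjusted p = 0.00137). Loxl2, a lysyl oxidase that crosslinks collagen, rose by 4.20 (SE 0.88, adjusted p = 0.0208), with only 1 NP array well above background. The call of Loxl2 was lost without NP rat 5, NP rat 6, D21 rat 1 or D21 rat 2, and with slide or scan day as a block. Eln, tropoelastin, was among the 7 that were not called (change 0.97, adjusted p = 0.294). The number of calls was 16 without D21 rat 4 or without NP rat 7, 11 without D21 rat 1, 9 without NP rat 5 or NP rat 6 and 8 without D21 rat 2. The fibroblast markers above moved with this group, since they include Col1a1, Col1a2 and Col3a1. The summed level of the 22 genes was 36.7 to 107 in NP and 444 to 663 in D21 depleted cells, against 596 to 1020 in whole cervix. Whether the depleted groups differed in the number of fibroblasts or in the RNA of each cannot be told apart.

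Among proteoglycans and matricellular proteins, which organise collagen fibres and bind growth factors, 8 of 17 rose and 0 fell (median 1.74). Vcan, versican, a large proteoglycan that binds hyaluronan, had levels of -3.60, -6.24 and -2.54 in NP and 0.31, 0.72 and 0.65 in D21 rats, a change of 4.69 (SE 0.73, adjusted p = 0.00418). Prelp, a leucine-rich repeat protein that anchors basement membranes, was tight in NP rats at -0.69, -0.41 and -0.27 and stood at 3.12, 3.71 and 2.40 in D21 rats (change 3.54, SE 0.32, adjusted p = 0.000221). Sparc and Postn, matricellular proteins of collagen-rich tissue, changed by 2.69 (SE 0.41, adjusted p = 0.00373) and 2.88 (SE 0.51, adjusted p = 0.00847). For all of these the groups did not overlap.

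This group was not uniform. Tnc, tenascin C, chosen after its values were seen, had a negative change of -4.87 (SE 1.33) that was not called (adjusted p = 0.0641), with levels of 0.65, -1.96 and 2.39 in NP and -5.02, -7.26 and -1.24 in D21 rats. The groups overlapped because D21 rat 4 lay above NP rat 6. Without D21 rat 4, 2 genes of the group were called lower, and 7 to 9 were called higher whichever array was left out. With slide as a block, 8 were called higher and 1 lower.

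Of 14 tested metalloproteinases, which cleave matrix, and their inhibitors, 4 rose and 0 fell (median 1.26). All 14 were well above background on all 3 D21 arrays and 10 on all 3 NP arrays. Over the 19 genes on the array, the median was 0.69. Mmp2, gelatinase A (probe at chr19:15246221-15246280, rn4), had levels of 1.31, 1.41 and 0.90 in NP and 4.14, 4.98 and 4.31 in D21 rats, a 9.64-fold difference (log2 3.27, SE 0.28, adjusted p = 0.000221). The groups lay more than 2 log2 units apart, and each spread over less than 1 unit. Mmp19 and Mmp23, a secreted and a membrane-bound metalloproteinase, changed by 2.50 (SE 0.39, adjusted p = 0.00423) and 2.38 (SE 0.33, adjusted p = 0.00245). Timp1, a secreted inhibitor of these enzymes, rose by 1.61 (SE 0.33, adjusted p = 0.0181), a call that was lost without NP rat 5, NP rat 6 or D21 rat 2. Mmp3, Mmp9, Mmp10, Mmp13 and Mmp16 could not be tested in depleted cells. The number called higher in this group was 8 without D21 rat 4, when 1 was also called lower, and 3 to 5 without any of the others.

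Smooth muscle markers rose in part. Of 9 tested, 4 rose and 0 fell, with a median of 1.40, against 0.64 over all 13 on the array. Des, desmin, the intermediate filament of muscle, had levels of 0.52, 0.83 and 0.63 in NP and 3.48, 4.67 and 2.58 in D21 rats (change 2.92, SE 0.42, adjusted p = 0.00297). Actg2, the smooth muscle gamma actin, had levels of 1.24, 0.86 and 2.13 in NP and 4.85, 6.22 and 3.34 in D21 rats (change 3.39, SE 0.62, adjusted p = 0.0102). D21 rat 2 was the highest and D21 rat 4 the lowest D21 rat for both, and the groups did not overlap. The call of Actg2 was lost with slide as a block.

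Cnn1, calponin, which binds actin and restrains contraction, changed by 1.53 (SE 0.28, adjusted p = 0.00975). Mylk, the kinase that phosphorylates myosin light chain to start contraction, changed by 2.22 (SE 0.43, adjusted p = 0.0135). Its call was lost without NP rat 5, D21 rat 1 or D21 rat 2 and with slide as a block. Acta2, smooth muscle alpha actin, was not called with all arrays (change 1.40, adjusted p = 0.0941). D21 rat 4 at 1.83 lay below NP rat 7 at 1.92, and Acta2 was called without D21 rat 4. The summed level of the 9 markers was 24.2 to 34.2 in NP and 50.8 to 168 in D21 depleted cells, against 323 to 764 in whole cervix, so that the depleted cells of both groups were below whole cervix on this scale. With slide as a block, 2 of the 9 were called, and without D21 rat 4, 6 were called of 10 that could be tested.

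**Figure D3:**
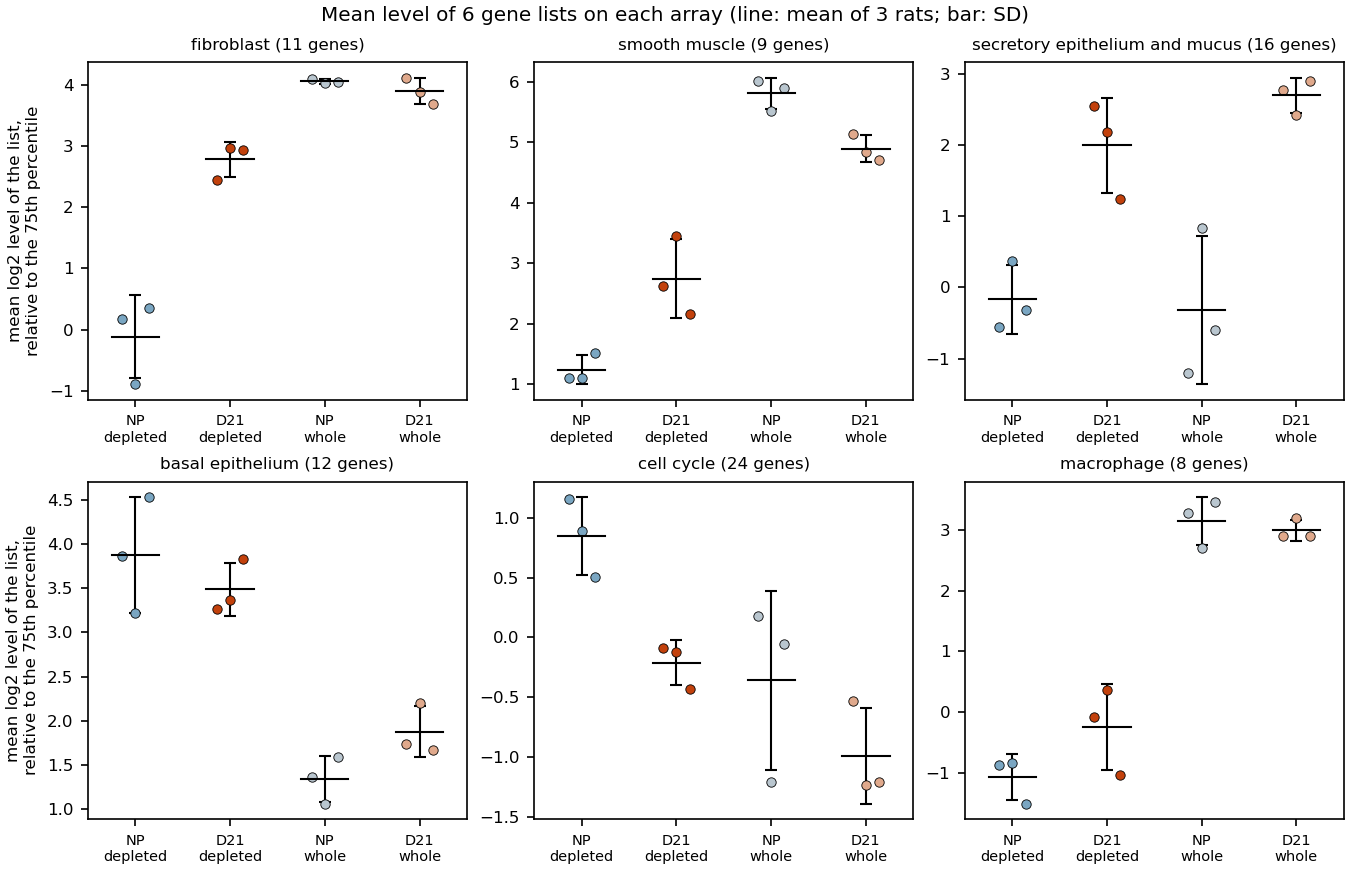
Mean level of the tested members of marker lists on each array, with 1 point for each rat of the NP and D21 depleted and whole groups (log2 intensity relative to the 75th percentile), a line at the group mean and an error bar of 1 SD. Fibroblast markers lie between -0.90 and 0.36 in NP and between 2.45 and 2.96 in D21 depleted cells, and between 3.69 and 4.12 in whole cervix.

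Some genes of secretory epithelium rose. Gp2, a glycoprotein of the apical membrane that binds bacterial fimbriae (probe at chr1:177714482-177714541, rn4; promoter shown above), had levels of -6.94, -2.20 and -4.53 in NP and 4.74, 3.43 and 4.07 in D21 rats. It was well above background on 1 NP array and on all D21 arrays, and the change was 8.63 (SE 1.41, adjusted p = 0.00545), whose size is not exact because it rests on NP signals near background. Fcgbp, a mucin-like protein secreted with mucus, was well above background on every array, with levels of 1.71, 1.89 and 2.00 in NP and 6.31, 6.29 and 5.24 in D21 rats (change 4.08, SE 0.64, adjusted p = 0.00418). All D21 rats lay above all NP rats by more than 3 log2 units.

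Scgb1c1, a secretoglobin, one of a family of small proteins secreted by mucosal epithelia, had levels of 0.28, 0.52 and 1.89 in NP and 5.89, 5.66 and 4.21 in D21 rats (change 4.35, SE 0.61, adjusted p = 0.00246). D21 rat 4 was the lowest D21 rat and NP rat 7 the highest NP rat, and the gap between them was over 2 log2 units. Scgb3a1, another secretoglobin, reached a signal well above background on none of the NP arrays, and D21 rats exceeded NP rats at least 4.72-fold (adjusted p = 0.0164), a call that was lost without NP rat 6, D21 rat 1 or D21 rat 2 and with slide or scan day as a block. Such bounds set the mean of the brighter group against, for each array of the dimmer group, the gene's own signal or, where that is dimmer, the weakest signal that the software still rated well above background. Of 16 tested genes of secretory epithelium and mucus, 3 rose and 0 fell, with a median change of 2.01, and 14 of the 16 changes were positive. All 16 were well above background on all 3 D21 arrays and 12 on all 3 NP arrays, so the filter favoured positive changes. Over the 20 genes on the array, the median was 1.6. Tff1, a trefoil peptide of mucus, and the cell surface mucin Muc1, chosen after their values were seen, had changes of 2.54 and 2.23 that were not called (adjusted p = 0.157 and 0.183). Without D21 rat 4, 8 were called, and without NP rat 7, 4. Between 2 and 3 were called without any of the others.

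Further genes were named for the size of their change or bound. Of these, Ffar4 came from the study's own list of genes higher in D21 whole cervix. Scgb3a1, above, and Pla2g2a and Ptgdr, below, are on that list too. Sftpd, surfactant protein D, a lectin of mucosal defence, had levels of -1.97, -0.41 and 2.24 in NP and 4.41, 4.72 and 4.39 in D21 rats (change 4.55, SE 0.85, adjusted p = 0.0117). The D21 rats were nearly equal and the NP rats spread over more than 4 log2 units, and the call was lost without D21 rat 2. Guca2b, uroguanylin, a peptide that regulates salt and fluid secretion, was at least 10.9-fold brighter in D21 (adjusted p = 0.0444), and its call was lost without NP rat 5, NP rat 6, D21 rat 2 or D21 rat 4. Vsig2, a membrane protein of the immunoglobulin family, was at least 8.37-fold higher (adjusted p = 0.000238), and Ccdc129, a coiled-coil protein, at least 9.67-fold (adjusted p = 0.00272). The calls of both held with each array left out. Ffar4, a receptor of long-chain fatty acids, rose by 3.49 (SE 0.83, adjusted p = 0.0383). Only 1 NP array was well above background, so the size of this change is not exact. The call of Ffar4 was lost without NP rat 5, NP rat 6, D21 rat 1 or D21 rat 2. Slide or scan day as a block also removed it.

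Few markers of simple epithelium were called. Of 14 tested, 1 rose and 0 fell, with a median of 0.86. It was Cldn4, a claudin of tight junctions, with levels of 2.95, 4.04 and 3.47 in NP and 5.61, 5.14 and 4.84 in D21 rats (change 1.71, SE 0.30, adjusted p = 0.0073). A slide block removed the call. Krt8, the keratin of simple epithelium, changed by 1.11 and was not called (adjusted p = 0.222). Without D21 rat 4, 3 of the 14 were called higher and 1 lower, and 2 were called higher without NP rat 7. The summed level of the 14 markers was 132 to 214 in NP and 306 to 379 in D21 rats. These ranges did not overlap, and the part of this difference in the secretory genes was not tested.

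Genes of squamous epithelium were among those that fell. Krt4, a keratin of the upper layers of squamous mucosa (probe at chr7:140622673-140622732, rn4), had levels of 2.55, 3.59 and 2.39 in NP and -2.12, -2.03 and 0.89 in D21 rats, a 15.3-fold decrease (log2 change -3.93, SE 0.78, adjusted p = 0.0153). D21 rat 4 was nearest to the NP rats, and the groups did not overlap. The call was lost without NP rat 5, NP rat 6, D21 rat 1 or D21 rat 2, with slide as a block and with scan day as a block. Scel, sciellin, a precursor of the cornified envelope, changed by -2.57 (SE 0.64, adjusted p = 0.0454) and lost its call without the same 4 arrays. Tmprss11e, a membrane serine protease of squamous epithelia, was at least 9.44-fold lower in D21 (adjusted p = 0.033), a call that was lost without any array but D21 rat 4. The calls of Scel and Tmprss11e were also lost with slide or scan day as a block.

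Cornified markers varied widely within both groups. Of 12 tested, 1 fell (Krt4) and 0 rose, and the median was -2.04. Krt10, a keratin of cornifying layers, chosen after its values were seen, had levels of 4.89, -3.98 and 4.98 in NP and -6.48, -5.63 and 2.73 in D21 rats. NP rat 6 was near the D21 rats and D21 rat 4 was near the NP rats, and the change of -5.08 had an SE of 3.15 (adjusted p = 0.362). The summed level of the 12 markers was 453, 74.9 and 322 in NP and 108, 174 and 214 in D21 rats, and these overlapped. Basal epithelial markers had 0 of 12 called by limma and 0 at an unadjusted p below 0.05, with a median of -0.42. Krt14, a basal keratin, changed by -0.60 (adjusted p = 0.681).

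Other genes that fell carry or conjugate small molecules. Gsta4, a glutathione transferase that clears lipid peroxidation products, had levels of 2.23, 1.74 and 2.77 in NP and 0.31, 0.02 and -1.04 in D21 rats (change -2.48, SE 0.39, adjusted p = 0.00437). Its call held with each array left out, and the groups did not overlap.

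Sult1c3, a sulfotransferase, was at least 17.5-fold lower in D21 (adjusted p = 0.00373), with no D21 array well above background. Fabp5, a fatty acid-binding protein of keratinocytes, changed by -2.71 (SE 0.54, adjusted p = 0.0157), and the call was lost without NP rat 5 or D21 rat 1. Them5, an acyl-CoA thioesterase, changed by -1.93 (SE 0.41, adjusted p = 0.0231), and the call was lost without D21 rat 1 or D21 rat 2. Fut1, which makes the H blood group antigen, changed by -3.11 (SE 0.57, adjusted p = 0.0108), and lost its call without NP rat 5 or D21 rat 2. These 3 calls were also lost with slide or scan day as a block.

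Transcription factors and less known genes made up the rest of the leading decreases. Dlx2, a homeobox factor, was at least 7.93-fold lower (adjusted p = 0.00479). E2f8, a repressor that acts in the cell cycle, had levels of -1.14, -1.08 and -1.99 in NP and -3.73, -4.59 and -3.51 in D21 rats (change -2.54, SE 0.43, adjusted p = 0.00615). Ccdc3, a secreted coiled-coil protein, changed by -3.43 (SE 0.55, adjusted p = 0.00479). The calls of these 3 held with each array left out. Plagl1, a zinc finger factor, changed by -2.92 (adjusted p = 0.0265) and lost its call without NP rat 5, NP rat 7, D21 rat 1 or D21 rat 2. Albfm1, an albumin family member, changed by -2.45 (adjusted p = 0.0137) and lost its call without D21 rat 1 and with scan day as a block. Rnase3, a ribonuclease of eosinophils, was at least 2.51-fold lower (adjusted p = 0.0454) and lost its call without any array but D21 rat 4. With another background correction, normexp, its change was 0.32 in place of -2.18.

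The cell cycle list had mostly negative changes. Of its 24 tested genes, which do not include E2f8, 0 were called by limma, with 13 at an unadjusted p below 0.05 and 2 lower by the methods' t-test, a Welch test without adjustment. Of the changes, 23 of 24 were negative, and the median was -0.93. For 19 of the 24, every D21 rat lay below every NP rat, against 7.53% of all genes tested. Ccnb2, cyclin B2, chosen after its values were seen, had levels of 0.64, 0.02 and -0.30 in NP and -2.44, -2.23 and -0.77 in D21 rats (change -1.93, SE 0.59, adjusted p = 0.096). Ccnd1, cyclin D1, was the exception, with a change of 0.33 (adjusted p = 0.748). The mean level of the list was 0.50 to 1.15 in NP and -0.43 to -0.09 in D21 rats. Without NP rat 7 or without D21 rat 4, 2 genes of the list were called lower, or 4 without D21 rat 4 among the genes tested with all arrays.

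Hormone-related genes changed in a few members. Rxfp1, the receptor of relaxin, the hormone of cervical softening (probe at chr2:171044633-171044692, rn4), had levels of -2.77, -2.89 and -3.07 in NP and -0.70, 0.15 and -0.49 in D21 rats, a change of 2.56 (SE 0.30, adjusted p = 0.00089). Both groups were tight, and 2 NP arrays were well above background. It was the only call among 11 tested hormone receptors (median 0.39). Without D21 rat 4, 2 were called. Esr1, the estrogen receptor, and Pgr, the progesterone receptor, changed by -0.60 and 0.67 and were not called (adjusted p = 0.387 and 0.578).

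Enzymes of steroid metabolism had 3 of 9 called higher and 0 lower (median 0.55). Hsd11b2 and Hsd11b1 interconvert active and inactive glucocorticoid. Hsd11b2 had levels of 0.49, 1.05 and 0.65 in NP and 4.28, 4.54 and 3.37 in D21 rats, a 10.1-fold difference (log2 3.33, SE 0.30, adjusted p = 0.000221). Hsd11b1, again well above background on none of the NP arrays, rose at least 3.79-fold (adjusted p = 0.0101), a call that was lost without D21 rat 2. Akr1c14, a 3-alpha-hydroxysteroid dehydrogenase, rose by 2.44 (SE 0.32, adjusted p = 0.00157). Thyroid hormone deiodinases were among the leading genes too. Dio3, which inactivates thyroid hormone, had levels of -4.08, -4.26 and -2.19 in NP and 1.11, 1.07 and 0.78 in D21 rats (change 4.49, SE 0.56, adjusted p = 0.00139). Dio2, which activates it, was at least 7.51-fold higher (adjusted p = 0.0344), and its call was lost without NP rat 5, NP rat 6, D21 rat 1 or D21 rat 2.

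Prostaglandin genes had 4 of 16 called higher and 0 lower, with a median of 0.05, close to that of all genes. Pla2g2a, a secreted phospholipase that frees fatty acids from membranes, had levels of 1.60, -0.58 and -1.80 in NP and 2.79, 3.15 and 3.84 in D21 rats (change 3.52, SE 0.66, adjusted p = 0.0114). The groups did not overlap, though NP rat 5 was near the D21 rats. Ptgdr, a receptor of prostaglandin D2, was at least 3.29-fold higher (adjusted p = 0.00155). Hpgd, which inactivates prostaglandins, rose by 2.15 (SE 0.46, adjusted p = 0.0231). This call was lost without NP rat 6, NP rat 7, D21 rat 1 or D21 rat 2 and with scan day as a block. Ptgis, prostacyclin synthase, rose by 2.08 (SE 0.44, adjusted p = 0.0222), a call lost without NP rat 5, D21 rat 1 or D21 rat 2. Ptgs2, the inducible cyclooxygenase, changed by -0.72 and was not called (adjusted p = 0.673). Without D21 rat 1 or D21 rat 2, 2 of the 16 were called.

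Among 18 cytokines and chemokines, 3 rose and 0 fell (median 0.92). Cxcl12, a chemokine of stromal cells, had levels of -0.09, 0.23 and 0.92 in NP and 2.79, 3.25 and 2.32 in D21 rats (change 2.43, SE 0.30, adjusted p = 0.00123). Il18, a cytokine of epithelium and myeloid cells, rose by 2.68 (SE 0.56, adjusted p = 0.0214), a call lost without NP rat 5 or NP rat 7, and Il11, a cytokine of stromal cells, by 1.56 (SE 0.31, adjusted p = 0.0163), a call lost without NP rat 6 or D21 rat 1. Slide or scan day as a block also removed the call of Il11. The number called was 5 without D21 rat 4 and 2 without NP rat 5, NP rat 7 or D21 rat 1. Ccl11, eotaxin, which attracts eosinophils, was the largest rise among genes with a symbol that all 6 arrays measured well above background, with levels of -2.90, -3.70 and 1.39 in NP and 2.97, 3.25 and 5.55 in D21 rats (change 5.66, SE 1.31, adjusted p = 0.0323). NP rat 7 and D21 rat 4, which shared a slide, were each the highest of their group, and the call was lost without NP rat 5, NP rat 6, D21 rat 1 or D21 rat 2.

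Of 12 complement genes, 2 rose and 0 fell (median 0.47), both proteases of the first component. C1r had levels of -1.18, -1.12 and -0.70 in NP and 1.63, 2.77 and 1.62 in D21 rats (change 3.01, SE 0.32, adjusted p = 0.000492). C1s rose by 1.68 (SE 0.35, adjusted p = 0.0206), a call lost without NP rat 5, NP rat 6 or D21 rat 2. Interferon-induced genes had 0 of 18 called and antimicrobial genes 0 of 9 by limma, with 2 of each at an unadjusted p below 0.05, and their medians were 0.31 and 0.47. The calls were 2 interferon-induced genes higher and 1 antimicrobial gene lower without D21 rat 4, and 1 interferon-induced gene higher without NP rat 6. The Mφ marker list, whose summed levels overlapped between the groups, had positive changes in the same arrays, and its part in these values was not tested. Of the other leukocyte markers, 3 neutrophil, 1 mast cell, 2 T and NK cell and 1 B cell genes could be tested, and 0 were called by limma in any list, with 1 neutrophil and 1 T and NK cell gene at an unadjusted p below 0.05. Of the T and NK cell genes, 1 was called higher without D21 rat 4 and 1 lower without NP rat 6.

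Immediate-early genes, which respond within minutes to growth factors and to tissue handling, had 5 of 23 called higher and 0 lower (median 0.75). Their summed level was 159 to 254 in NP and 258 to 480 in D21 depleted cells, against 60.6 to 109 in whole cervix. The depleted cells of both groups were thus above whole cervix, and the part of handling in these levels was not tested. Egr1 had levels of 0.42, 1.16 and 1.05 in NP and 3.42, 2.62 and 3.03 in D21 rats (change 2.15, SE 0.35, adjusted p = 0.005). Egr4 rose by 3.03 (SE 0.52, adjusted p = 0.00693), Fosl1 by 2.41 (SE 0.37, adjusted p = 0.00373) and Csrnp1 by 1.47 (SE 0.34, adjusted p = 0.0322). The call of Csrnp1 was lost without any array but D21 rat 4 and with scan day as a block. The calls of Egr1, Egr4 and Csrnp1 were lost with slide as a block. Fos itself, chosen after its values were seen, changed by 0.27 in depleted cells and was not called. In whole cervix, where it is on the study's list of higher genes, Fos changed by 2.53 (adjusted p = 0.00621 from limma). The list had 9 calls without D21 rat 4, 4 without NP rat 6 and 3 without any of the others. Of 8 heat shock genes, 1 was called, the cochaperone Dnajb1 (change 1.23, SE 0.20, adjusted p = 0.00565).

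Chrd and Inhbb had some of the largest rises among genes well above background on every depleted array. Sfrp4 also had a large rise but was not well above background on all of them. Sfrp4, a secreted antagonist of Wnt, had levels of -2.25, -1.66 and -2.25 in NP and 3.07, 3.99 and 1.98 in D21 rats, a change of 5.07 (SE 0.73, adjusted p = 0.00272). Chrd, chordin, which binds bone morphogenetic proteins, had levels of -3.99, -4.82 and -1.82 in NP and 1.64, 1.70 and 0.96 in D21 rats (change 4.97, SE 0.58, adjusted p = 0.00092). Inhbb, the beta B subunit of inhibin and activin, had levels of -3.31, -1.69 and -0.56 in NP and 2.33, 3.15 and 2.77 in D21 rats (change 4.60, SE 0.67, adjusted p = 0.00299). Every D21 rat was above every NP rat for the 3 genes, and their calls held with each array left out.

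In the Wnt list, 2 of 14 rose and 1 fell (median -0.19). Dkk3, of the Dickkopf family, rose by 1.83 (adjusted p = 0.0275) and Wnt10a, a ligand, changed by -1.72 (adjusted p = 0.0327). Dkk3 lost its call without NP rat 5, NP rat 6, D21 rat 1 or D21 rat 2, and Wnt10a without NP rat 5, NP rat 7, D21 rat 1 or D21 rat 2. Both calls were also lost with slide or scan day as a block. Of 9 Hox genes, 2 rose (median 0.20). Hoxa13, the factor that patterns the lower reproductive tract, had levels of -2.96, -3.50 and -5.04 in NP and 1.24, 1.79 and -0.97 in D21 rats (change 4.52, SE 0.67, adjusted p = 0.00348). Hoxa11, which patterns the uterus, rose by 2.01 (SE 0.49, adjusted p = 0.0431), and its call was lost without NP rat 5, NP rat 6, D21 rat 1 or D21 rat 2. Slide or scan day as a block also removed it. Olfml3, a secreted matrix protein, had levels of 0.16, 0.30 and 0.25 in NP and 4.85, 5.27 and 3.34 in D21 rats (change 4.25, SE 0.44, adjusted p = 0.000463). Ramp1, which pairs with the receptor of calcitonin gene-related peptide, rose by 3.97 (SE 0.60, adjusted p = 0.00362). Asic2, an acid-sensing ion channel, was at least 5.81-fold higher (adjusted p = 0.0271), a call lost without NP rat 5, NP rat 6 or D21 rat 1.

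Markers of other tissues were sparse. Of 11 endothelial markers, 1 was called, the growth factor receptor Kdr (change 1.61, SE 0.34, adjusted p = 0.0206), and its call was lost without NP rat 5, NP rat 6 or D21 rat 1. The median was -0.21, and Pecam1, the adhesion molecule of endothelium, changed by 0.55 (adjusted p = 0.443). Of 5 skeletal muscle genes, Acta1, the skeletal actin, was called (change 3.29, SE 0.77, adjusted p = 0.0354), and of 3 adipocyte genes Adipoq, adiponectin (2.77, SE 0.69, adjusted p = 0.0457) and Cfd, the protease adipsin (2.47, SE 0.48, adjusted p = 0.0135). Acta1 and Adipoq lost their calls without NP rat 5, NP rat 6, D21 rat 1 or D21 rat 2, and Cfd without D21 rat 1 or D21 rat 2. Slide or scan day as a block also removed the calls of Acta1 and Adipoq. Of 5 aquaporins, the water and glycerol channel Aqp9 was called (change 3.45, SE 0.79, adjusted p = 0.0314), and its call was lost without NP rat 5, NP rat 6, D21 rat 1 or D21 rat 2. A block for slide or scan day removed the call of Aqp9 too. The calls were 2 aquaporins and 3 skeletal muscle genes higher and 1 endothelial gene lower without D21 rat 4, and 2 aquaporins without NP rat 7. Among 22 genes of the secretory pathway of the endoplasmic reticulum, 10 of gap junctions, 8 of the EGF family, 5 of hyaluronan and 9 housekeeping genes, 0 were called by limma, with 3, 2, 2, 1 and 0 at an unadjusted p below 0.05. With D21 rat 4 left out, 2 endoplasmic reticulum and 2 gap junction genes were called higher, 1 endoplasmic reticulum and 1 EGF family gene lower, and 1 housekeeping gene each way, and without NP rat 7, 1 endoplasmic reticulum and 1 hyaluronan gene were called higher and 1 EGF family gene lower. The medians were 0.03, 0.38, 0.14, 0.54 and -0.14. Has2, a hyaluronan synthase, was well above background on 1 of the 6 arrays and could not be tested.

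**Figure D4:**
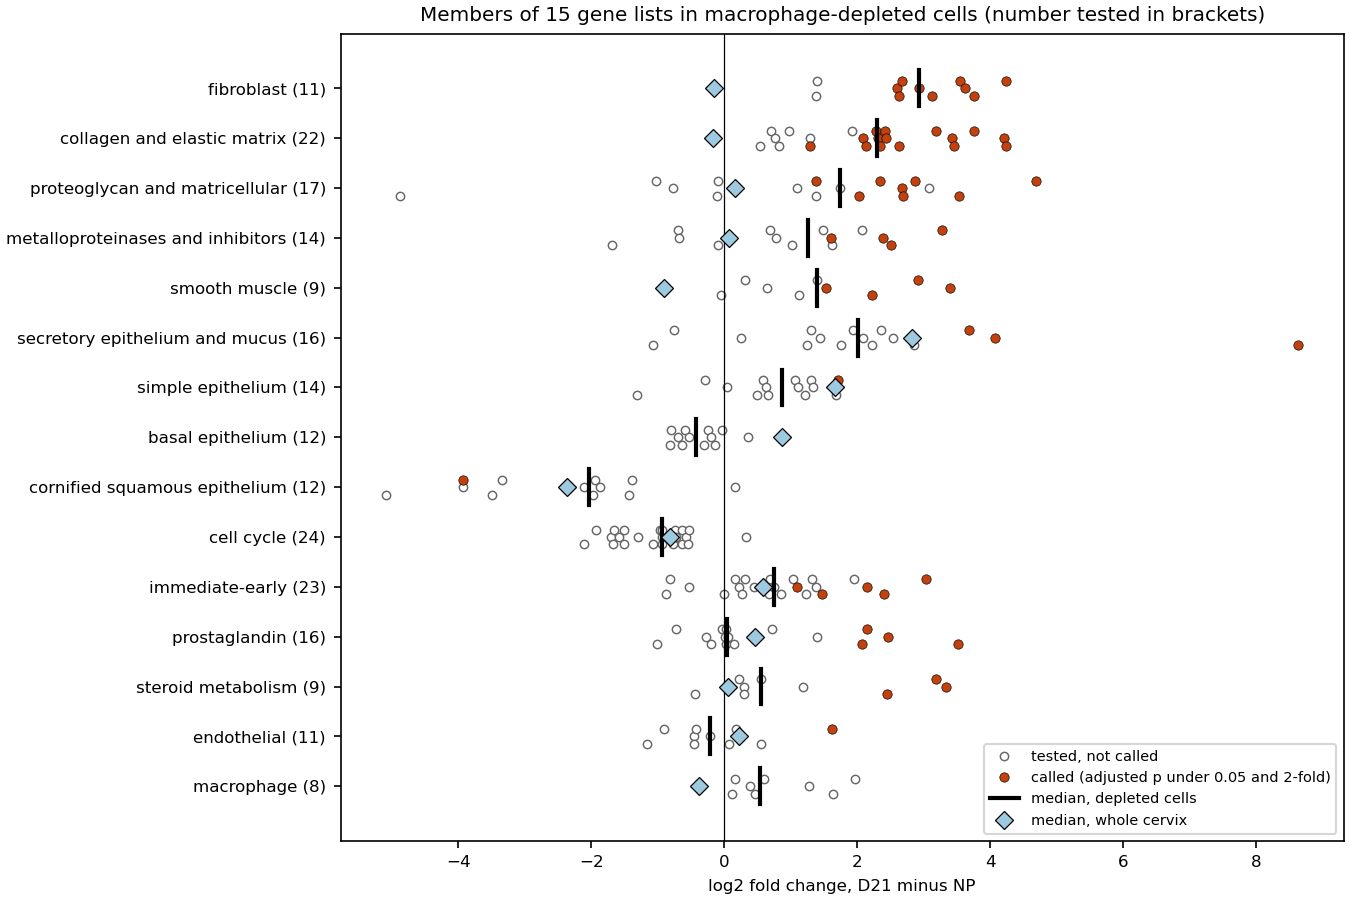
Change of each tested member of the gene lists in depleted cells (log2 difference, D21 minus NP), with 1 point for each gene, filled where it was called, a bar at the list's median and a diamond at its median in whole cervix. Of the fibroblast markers 9 of 11 were called higher, and 23 of 24 cell cycle genes lie below 0 with 0 called.

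The pregnancy comparison in whole cervix, made with other rats and sharing no array with the depleted one, showed where the depleted cells differed. There, 524 of 14055 genes were higher (3.73%) and 243 lower (1.73%). Of 12898 genes tested in both, 463 were higher in depleted cells, and 75 of these were also higher in whole cervix, which is 16.2% of the former and 15.3% of the 491 higher in whole cervix. Of 97 genes lower in depleted cells, 12 were lower in whole cervix, 12.4% of these and 6.9% of the 174 lower there. Another 23 genes were higher in depleted cells and lower in whole cervix, and none went the other way. Dropping D21 rat 4 gave 114 genes higher in both and 19 lower in both, dropping NP rat 7 gave 72 and 11, and dropping any other depleted array gave 33 to 43 and 4 to 12. The changes had r = 0.222 across genes.

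The difference between both changes was tested as an interaction in limma, at an adjusted p under 0.05. Of 14564 genes, the depleted change exceeded the whole change for 286 (1.96%) and was below it for 64 (0.439%). Among the 471 genes higher in depleted cells, 193 had an interaction call, and among the 75 and 12 genes called the same way in both, 2 did. The depleted change is a term of the interaction, so that these counts rest in part on how the genes were chosen. The number of interaction calls was 350 with all arrays, 55 with slide as a block, 2483 without D21 rat 4, 158 without NP rat 5, 233 without NP rat 6, 553 without NP rat 7, 185 without D21 rat 1 and 168 without D21 rat 2. Of the 55, 42 were among the 350. Most depleted arrays lay on slides without a whole array, so that depletion and slide overlapped.

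The stromal lists differed between the comparisons. In whole cervix, the fibroblast list had a median change of -0.15 with 0 of 12 called, the collagen and elastic list -0.16 with 0 of 23 called, the proteoglycan list 0.17 with 0 of 17 called and the smooth muscle list -0.91 with 1 of 12 called, lower. At an unadjusted p below 0.05 from limma, 1 fibroblast, 3 collagen and elastic, 3 proteoglycan and 8 smooth muscle genes differed in whole cervix. The interaction was called for 9 of 12 fibroblast, 11 of 23 collagen and elastic, 6 of 17 proteoglycan and 5 of 12 smooth muscle genes. With slide as a block these counts were 5, 1, 2 and 0, and with each array left out they ranged from 6 to 9, 6 to 14, 4 to 8 and 1 to 7. For Pdgfra the change was 3.55 in depleted cells and -0.05 in whole cervix (interaction 3.60, adjusted p = 0.00336). Col1a1 gave 3.76 and -0.10 (interaction 3.86, adjusted p = 0.0114). For Mmp2 the changes were 3.27 and 0.52 (interaction 2.75, adjusted p = 0.00798). With slide as a block the interaction was called for Pdgfra and Mmp2 (adjusted p = 0.0366 and 0.0492) and not for Col1a1 (adjusted p = 0.101). The NP depleted cells held the lowest levels of these lists of the 4 groups. Smooth muscle Acta2, not called in either comparison, had an interaction of 2.79 (adjusted p = 0.0403, or 0.182 with slide as a block).

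Some genes changed in opposite directions. Rxfp1 was higher by 2.56 in depleted cells and lower in whole cervix, with -2.05 (interaction 4.61, adjusted p = 0.00174). Hoxa11 gave 2.01 and -2.56 (adjusted p = 0.00978), and Cnn1 1.53 and -1.16 (adjusted p = 0.00794). With slide as a block the call held for Rxfp1 (adjusted p = 0.0198) and not for Hoxa11 or Cnn1 (0.139 and 0.0722). Wt1, a zinc finger factor of mesothelium and stroma, Gdf10, a growth factor of the TGF-beta family, and Ddr2, a collagen receptor, were chosen after their values were seen. Wt1 changed by 2.67 in depleted cells and -1.24 in whole cervix, Gdf10 by 3.14 and -1.38, and Ddr2 by 2.07 and -1.38 (interaction adjusted p = 0.00174, 0.00174 and 0.0079). For all 23 such genes the interaction was called, which is no added support because they were chosen as called in opposite directions. Genes higher in depleted cells and lower in whole cervix numbered 16 with slide as a block. With each depleted array left out they numbered 12 to 36.

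Gp2 and Fcgbp were called higher in both comparisons. Fcgbp changed by 4.08 in depleted cells and 6.00 in whole cervix (interaction adjusted p = 0.282). Gp2 changed by 8.63 and 8.17, with only 1 NP array measuring it well above background in each comparison, so that neither change is exact (interaction adjusted p = 0.923). The secretory list had a median of 2.01 in depleted cells and 2.82 in whole cervix, where 8 of 16 were called, and the interaction was called for 1 of 16. Simple epithelial markers had 1 call in depleted cells and 9 of 15 in whole cervix, with the interaction called for 0 of 15 (6 at an unadjusted p below 0.05 from limma). Ism1, a secreted protein chosen after its values were seen, was higher by 5.69 in depleted cells and by 2.19 in whole cervix, and its interaction was called (adjusted p = 0.0257). Krt4 and Gsta4 were lower in both, with -3.93 and -2.48 in depleted cells and -3.38 and -2.79 in whole cervix. Them5 was too, with -1.93 and -2.97. Krt4, Gsta4 and Them5 are all on the study's list of genes lower in D21 whole cervix. That list was drawn from the same whole arrays, so their direction there is no added support. The interaction was not called for Krt4, Gsta4 and Them5 (adjusted p = 0.819, 0.796 and 0.364). An interaction that was not called does not show that the changes were equal.

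**Figure D5:**
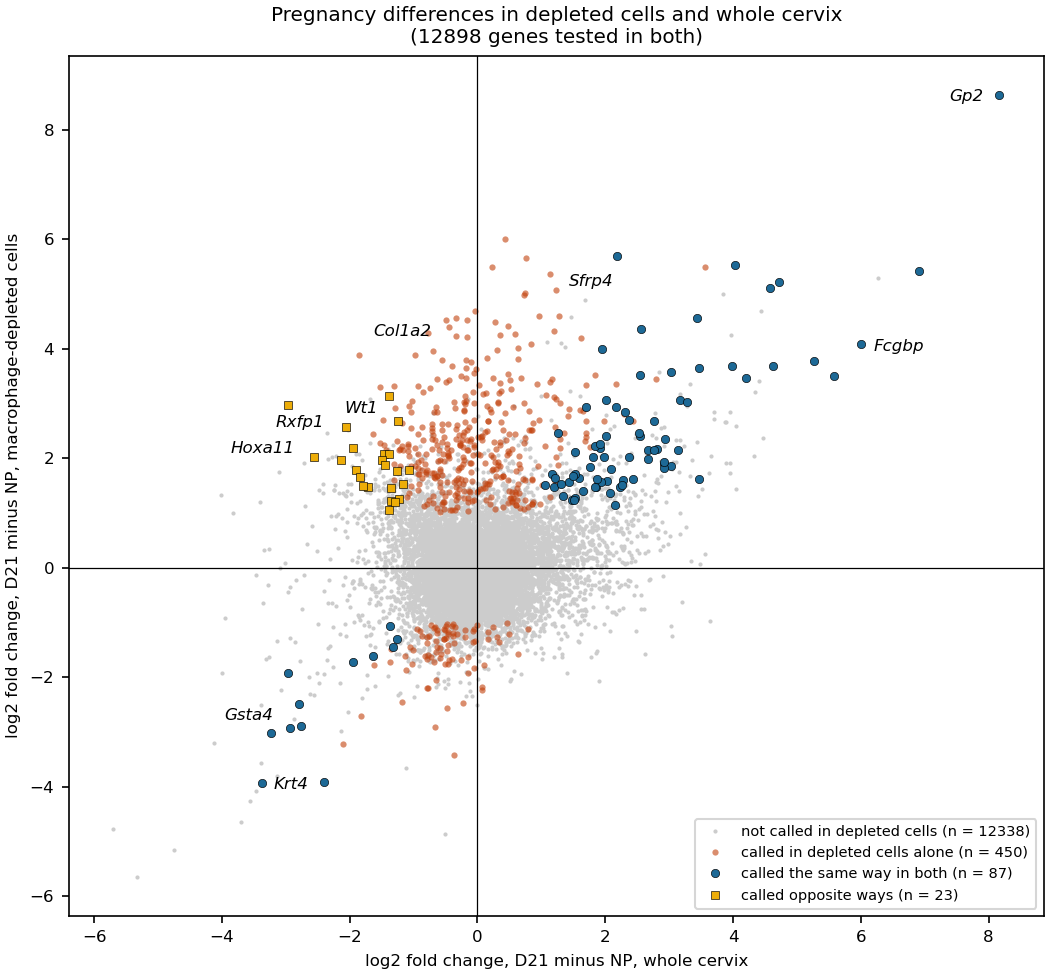
Change of each gene tested in both comparisons (log2 difference, D21 minus NP), in whole cervix on one axis and in depleted cells on the other, with 1 point for each of 12898 genes and named genes labelled. Col1a2 lies at -0.33 in whole cervix and 4.23 in depleted cells, Gp2 lies high on both axes, and colours mark the genes called in depleted cells alone, the same way in both (87) and opposite ways (23).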

How the data were processed

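Cervix RNA was labelled with Cy3 and read on Agilent rat 4x44K arrays, with 1 of 12 rats on each. The authors deposited spot intensity values as Feature Extraction 9.5.3.1 wrote them (background subtracted, detrended, not normalized between arrays), with probe positions in rn4, and a table of ratio values, each intensity relative to its array's 75th percentile. The raw mean and background intensity columns that the authors deposited were used for normexp. Spots of a probe were averaged without controls and outliers, and log2 intensities were set against the log2 75th percentile of the array. Accessions matched RefSeq for 17486 of 30367 probes (57.6%), and other names are those of the files. The brightest probe stood for each of 3399 genes with several of the 26604 gene names.

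Groups were compared with limma 3.58.1 (lmFit, eBayes, R 4.3.3), all 12 arrays sharing the spread. The script was tested on simulated data. The number of arrays limits the precision: 3 against 3 cannot go below p = 0.1 in an exact permutation test. Named were, among called genes without overlap, the 10 largest changes in each direction well above background on all 6 arrays, the 5 largest bounds in each direction, up to 4 called members in each direction of each list, and fixed single genes. One gene that the rule names is not reported here. Other names are said to be chosen after their values were seen. The members, lists and rule were chosen with earlier results of these data known. The lists included the study's own genes higher and lower in D21 whole cervix, which were drawn from the same whole arrays. Alternatives were the methods' threshold and t-test, no fold limit, the 6 arrays alone, normexp (offset 50), quantile normalization, another percentile, other background filters, the mean of probes, array weights, a block for slide or for day of scanning, the authors' values and each array left out. Figures were drawn with matplotlib 3.10.9.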

Additional observations from a re-analysis of the deposited data

Results flagged for a closer look

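For 30 of the named genes tested in both comparisons, the change with pregnancy in depleted cells differed from that in whole cervix by the interaction in limma (adjusted p between 0.00174 and 0.0497). The value beside each gene is the log2 change in depleted cells minus that in whole cervix. Genes of the stroma and its matrix were Dpt (3.65), Pdgfra (3.60), Col1a1 (3.86), Col1a2 (4.56), Col3a1 (3.08), Col6a2 (3.64), Vcan (4.72), Prelp (3.05), Sparc (2.75), Olfml3 (3.89), C1r (2.68) and Cxcl12 (1.84). Genes of muscle were Des (3.27), Actg2 (3.89), Acta2 (2.79), Cnn1 (2.69), Mylk (3.40) and Acta1 (4.81). Metalloproteinases were Mmp2 (2.75) and Mmp23 (2.33). Hormone-related genes were Rxfp1 (4.61), Ramp1 (3.67), Hsd11b2 (3.31), Akr1c14 (3.37), Dio3 (4.22) and Ptgis (3.02). Transcription and patterning genes were Hoxa11 (4.57), Hoxa13 (5.01), Egr1 (2.76) and Chrd (4.25). Most of these genes were named because they were called higher in depleted cells, which favours a positive value. The largest, Hoxa13, combined a change of 4.52 in depleted cells with one of -0.49 in whole cervix. The values of Hoxa13 and Vcan are not exact, because they rest in part on NP signals near background. Acta2 was the only one of the 30 not called in depleted cells. Depletion and slide overlapped, and with slide as a block 7 of the 30 were still called, Dpt, Pdgfra, Mmp2, Rxfp1, Hsd11b2, Akr1c14 and Hoxa13. With scan day as a block 22 were called, and with each array left out 16 to 30.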

How the results depend on the processing

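The number of genes called depended on the setting. Of the genes called with all arrays, 11 changed sign with normexp, and 0 under the other settings run. At the methods' threshold limma gave 731 higher and 277 lower. The methods' t-test gave 162 and 44 at that threshold and 0 and 0 after Benjamini-Hochberg adjustment, against 491 and 180 that changed 2-fold with an unadjusted p below 0.05. The counts were 169 and 26 with the 6 depleted arrays alone, 222 and 31 with normexp background correction, 215 and 30 with no background filter, 224 and 76 with a filter on every array, 1431 and 1219 with array weights and 294 and 48 with slide as a block. With scan day as a block 56 were lower. With each array left out, the number higher ranged from 244 to 1323 and the number lower from 32 to 1122. Leaving out D21 rat 4 while keeping the genes tested, chosen after seeing the data, gave 1180 and 1145. Interaction calls numbered 52 with normexp, 103 with no filter, 185 with a filter on every array, 3638 with array weights, 55 with slide as a block, 158 to 2483 with each array left out and 2620 without D21 rat 4 among the genes tested with all arrays. The cause of these moves was not tested, except that leaving arrays out or filtering changes the genes and arrays used. A block for slide or scan day also takes D21 rat 1 out of the change. Quantile normalization, the mean of probes, no fold limit, the authors' values and the percentile over detected probes kept both counts within 1.5 times, and the last moved the median of all genes by -0.16.

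Of 1489 values of the 80 named called genes under limma settings, 1488 kept their direction and 1211 their call. Calls were lost by 36 of the 80 with normexp, 22 with slide as a block and 39 with the 6 arrays alone. Rnase3 changed sign with normexp (0.32), as did Ptgs2 (0.52), which was not called. Medians of 20 lists changed sign under a setting, in 57 of 739 values, and those of the fibroblast, collagen, proteoglycan, metalloproteinase, smooth muscle, secretory, cornified and cell cycle lists did not. No paired analysis was possible because the D21 and NP depleted groups share no rat number. Signal over background limits dim genes, most of all on NP rat 7.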
